A study of Mus musculus with 284 samples.

Results

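Among 284 single tumour propagating cells of mouse skin tumours, 98 were low in 2 cell cycle scores at once, and these low-score cells are described here. Each score was the mean of log2(CPM + 1) over 8 genes, where CPM is the count of a gene scaled to the total count of the cell. The S score used Mcm2, Mcm3, Mcm5, Mcm6, Pcna, Tyms, Rrm2 and Dtl, and the G2/M score used Mki67, Top2a, Cdk1, Ccnb1, Birc5, Ube2c, Cenpf and Tpx2. A cell was a member when it lay below the median of its own mouse in both scores, and the remaining 186 cells of the same mice are called the other cells. The values of these 16 genes chose the members, so they are given as a description with no test.

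The cells came from 4 C57BL/6 mice: KO1 and KO3, labelled Sirt6-/-, and WT1 and WT2, labelled wild type. All mice received the carcinogen DMBA once at an age of 8 weeks and then TPA, a tumour promoter, over more than 20 weeks, and living cells were sorted from the tumours by surface CD34 and CD49f and by a YFP reporter (ROSA26-LSL-eYFP) switched on by Keratin14-Cre, per the labels' protocols. The sort thus took cells with a history of keratin 14 expression, and the labels do not say in which cells or from what stage Sirt6 was lost. Libraries were made from single wells with Smart-seq2, a full-length method without molecular identifiers, and each mouse counts as 1 replicate, 2 per genotype. KO1 lay on plates 1 and 2, KO3 on plate 2, WT1 on plate 3 and WT2 on plates 4 and 3, and the effects of plate and genotype cannot be told apart.

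A dividing cell copies its DNA in S phase, with the MCM helicase and the sliding clamp PCNA at the replication fork, and then enters G2 and mitosis, where the kinase CDK1 and its partner cyclin B1 are active and Ki-67 and topoisomerase II alpha are abundant. Cells outside the cycle, and cells in early G1, lack most of these transcripts. In such cells the DREAM complex, in which the pocket proteins p107 and p130 join E2F4, a DP protein and the MuvB core, is known to sit on the promoters of cell cycle genes. Promoters of S phase genes often carry E2F sites, and promoters of G2/M genes often carry a cell cycle genes homology region (CHR) together with CCAAT boxes. In epidermis, basal keratinocytes divide, and suprabasal keratinocytes leave the cycle as they differentiate.

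The low-score cells numbered 28 of 73 cells in KO1, 15 of 54 in KO3, 24 of 69 in WT1 and 31 of 88 in WT2. These are 38.4% (exact binomial 95% interval 27.2 to 50.5), 27.8% (16.5 to 41.6), 34.8% (23.7 to 47.2) and 35.2% (25.3 to 46.1) of the cells of KO1, KO3, WT1 and WT2. Because the medians were taken within each mouse, these shares say nothing of how much the mice cycled. No share can exceed that of the cells below a median of the mouse. The binomial intervals ignore this cap and are nominal, and the upper end of 50.5 in KO1 cannot be reached. The medians themselves differed widely: 5.08, 6.35, 5.84 and 2.25 for the S score and 1.97, 4.99, 3.43 and 0.847 for the G2/M score in KO1, KO3, WT1 and WT2. With medians over all 284 cells (4.78 for S and 2.47 for G2/M), the members were 29 cells of KO1, 9 of KO3, 18 of WT1 and 55 of WT2, or 39.7%, 16.7%, 26.1% and 62.5%. The highest and the lowest of these shares were in WT2 and KO3, with KO1 and WT1 between them, so the genotypes overlapped. Of the 98 cells, 85 were members by both rules.

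**Figure D1:**
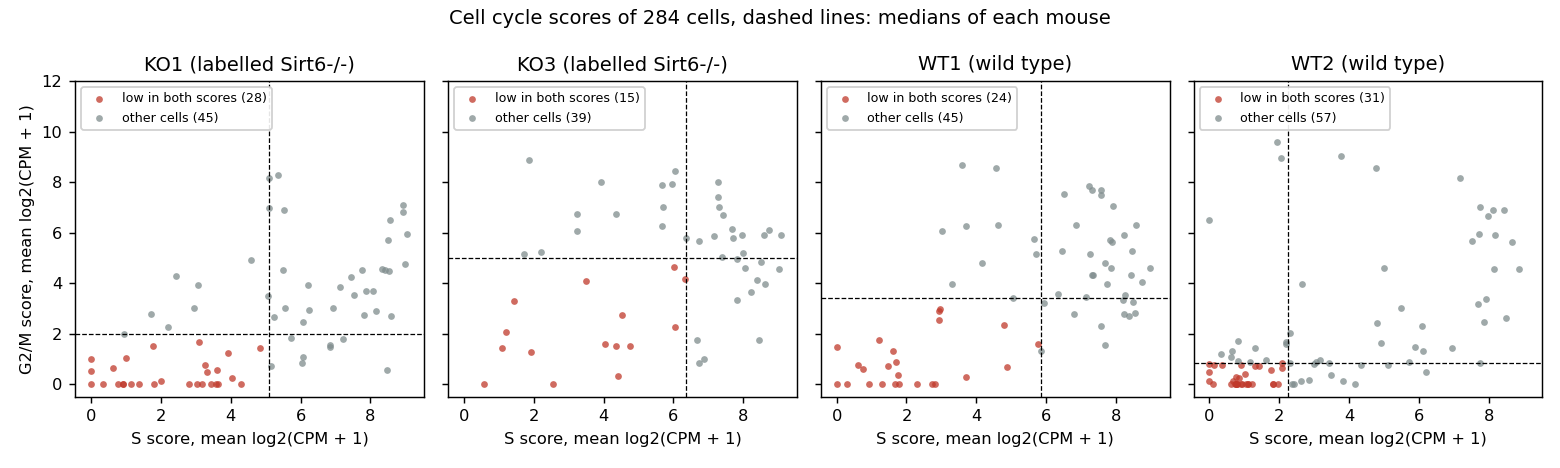
Cell cycle scores of each cell, the S score on the x axis and the G2/M score on the y axis, both as mean log2(CPM + 1), in 1 panel per mouse. Red points are the low-score cells and grey points the other cells, and dashed lines are the medians of the mouse. The members of KO3 reach a G2/M score of 4.62 and those of WT2 stay at or under 0.841.

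The 16 genes chose the cells, so their lower values in members are a description and no check of the label. Mki67 had a count in 19.4% of the 98 low-score cells against 72.6% of the 186 other cells, and Cdk1 in 8.2% against 68.8%. Pcna, which has roles in DNA repair as well as replication, had a count in 64.3% of the low-score cells against 93.5% of the other cells, and Mcm2 in 29.6% against 77.4%. None of the 8 G2/M genes had a count in 42 of the 98 low-score cells, against 3 of the 186 other cells, and 2 low-score cells had none of the 16 genes. KO3 stood apart: 13 of its 15 low-score cells had a count of at least 1 G2/M gene, and Mki67 was found in 53.3% of them and Top2a in 33.3%. In the low-score cells of KO1, WT1 and WT2 the shares with an Mki67 count were 10.7%, 16.7% and 12.9%. Of the 15 members of KO3, 9 also lay below both medians over all cells. Since members can carry G2/M transcripts, they are called low-score cells here.

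The levels of these genes in the sums of counts over cells are given for the same purpose. Mki67 lay at 13.4, 66.2, 8.62 and 1.43 CPM in the low-score cells of KO1, KO3, WT1 and WT2, against 167, 286, 161 and 131.8 CPM in the other cells of these mice. Cdk1 had 4.22, 35.5, 3.59 and 1.97 CPM in the low-score cells against 110.7, 188, 129.9 and 79.04 CPM in the other cells. Mcm5, a subunit of the replicative helicase, had 96.1, 185, 54.1 and 14.0 CPM against 427, 438, 499 and 274 CPM, and Pcna had 45.8, 73.2, 60.6 and 22.4 CPM against 177, 211, 194 and 118.8 CPM. Over the 16 genes the share of cells with a count ran from 4.1% (Cenpf) to 64.3% (Pcna) in the low-score cells and from 28.5% (Cenpf) to 93.5% (Pcna) in the other cells. The median low-score cell had counts for 4, 7, 3 and 2 of the 16 genes in KO1, KO3, WT1 and WT2, against 12, 14, 13 and 8 in the other cells. Within a mouse the 2 scores were related, with Pearson's r across cells of 0.62, 0.27, 0.59 and 0.54 in KO1, KO3, WT1 and WT2, as a description over 73, 54, 69 and 88 cells, which share a mouse and mostly a plate. The S scores nearest to the threshold were 5.07 and 5.08 in KO1, 6.35 and 6.36 in KO3, 5.75 and 5.84 in WT1 and 2.20 and 2.30 in WT2, just under it and at or just above it.

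Low-score cells had fewer genes detected. The median number of genes with a count was 5729, 6172, 5884 and 5259 in the low-score cells of KO1, KO3, WT1 and WT2, against 6648, 6793, 7145 and 6136 in the other cells. The difference was negative in 4 of 4 mice and averaged -919.5 ± 263 genes (SD, n = 4 mice; exact permutation test over sign flips, two-sided, p = 0.125, the smallest p that 4 mice allow). After thinning every cell to 500000 counts the medians were 5446, 5850, 5471 and 4940 genes in the low-score cells and 6196, 6285, 6722 and 5787 genes in the other cells, and 96 of 98 cells were members again. The scores and the number of genes detected thus moved together. Some of the results are therefore also given over 67 pairs of a low-score and another cell of the same mouse. The cells of a pair differed by at most 200 detected genes, a comparison chosen after seeing the data. Where a gene or list has no value over these pairs, its difference at similar detection is not given. Median total counts per cell were 1070587, 1256446, 956591 and 999260 in the low-score cells against 1153349, 1289020, 1210848 and 1065843 in the other cells.

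**Figure D2:**
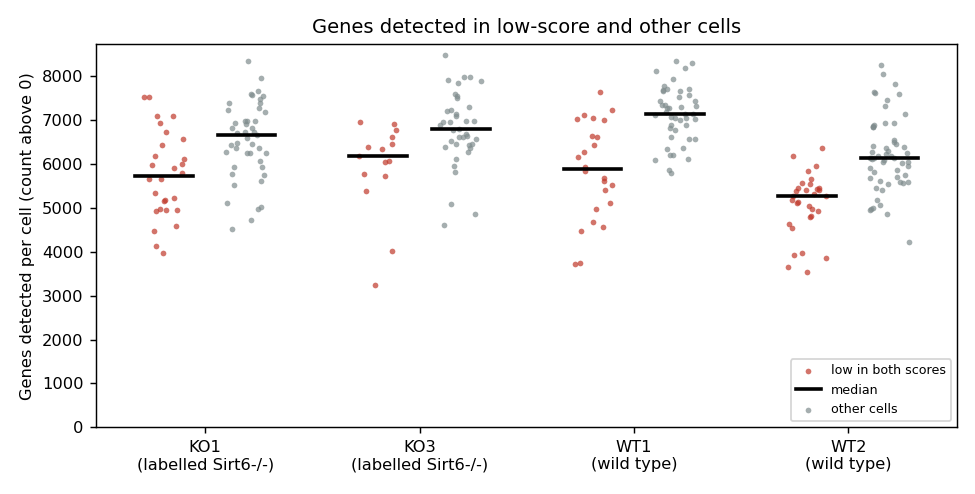
Genes with a count above 0 per cell (y axis), in low-score cells (red) and other cells (grey) of each mouse. Each point is a cell and black bars are medians, which lie between 5259 and 6172 in the low-score cells and between 6136 and 7145 in the other cells.

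The low-score cells carried keratinocyte transcripts, as the other cells did. Krt14 and Krt5, the basal keratins, had counts in 98 of 98 low-score cells and 186 of 186 other cells, the epithelial factor Trp63 in 93.9% against 99.5%, and Itga6, which encodes CD49f, in 85.7% against 95.2%. Cd34, which encodes the other surface protein of the sort, had a count in 59.2% of the low-score cells against 80.1% of the other cells, with 71.4%, 53.3%, 66.7% and 45.2% in the low-score cells of KO1, KO3, WT1 and WT2 against 75.6%, 74.4%, 93.3% and 77.2% in the other cells. These shares were not tested and move with the genes detected. Markers of other cell types summed to at most 38.6 CPM in any mouse and state, with the highest sum for the immune markers. The 8 fibroblast markers summed to between 0 and 1.86 CPM in the low-score cells against 0.058 to 2.34 CPM in the other cells, with 3 of 8 detected in either and Col1a2, Dcn, Lum and Pdgfrb at 0 in both. The 6 endothelial markers summed to 4.89 to 13.2 CPM against 2.94 to 11.2 CPM (4 and 3 detected, Kdr and Emcn at 0), and the 6 melanocyte markers to 0 to 11.6 CPM against 0.168 to 3.28 CPM (3 and 3 detected, Dct, Tyr and Tyrp1 at 0). The 7 muscle and adipocyte markers summed to 0 to 5.18 CPM against 0.58 to 6.19 CPM (2 and 6 detected, Adipoq at 0). The 10 immune markers summed to 1.06 to 38.6 CPM in the low-score cells against 8.53 to 29.3 CPM in the other cells, with 5 and 7 detected, Cd3e, Cd3g and Cd207 at 0 and the highest value in WT2. At least 2 immune markers had a count in 3 of the 98 low-score cells and 4 of the 186 other cells.

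To compare the states, the expected counts of the low-score cells and of the other cells of each mouse were summed, giving 8 sums with 17582504 to 31415091 counts over low-score cells and 48753048 to 61207591 over other cells. Levels below are CPM of these sums, scaled by the trimmed mean of M values (TMM), and a log2 difference is low-score minus other cells, fitted by edgeR with the mouse as a block. Among 14055 genes tested, edgeR by its quasi-likelihood test called 0 at a Benjamini-Hochberg adjusted p under 0.05 (0% of the genes), with a lowest adjusted p of 0.0796 for Mcm4 and Lig1. An unadjusted p under 0.05 was reached by 1255 genes (8.93%), 446 higher (3.17%) and 809 lower (5.76%) in the low-score cells. DESeq2 called 705 genes (5.02%), 200 higher (1.42%) and 505 lower (3.59%), and limma-voom called 23, all lower (0.164%). On the mean log2(CPM + 1) per cell, limma called 946 (6.73%), 11 higher (0.0783%) and 935 lower (6.65%). The 8 sums leave 3 residual degrees of freedom. No gene below passed edgeR's adjustment, so each is given by its values and the number of mice that share its direction, against a background of 11.8% of all tested genes lower in 4 of 4 mice and 7.57% higher in 4 of 4. A negative log2 difference, whatever its size, was found for 56.2% of all genes. Since the cells were grouped by transcripts of the same cells, the p-values describe the spread between mice of a difference that the grouping partly sets, most of all for other cell cycle genes.

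Genes of DNA replication outside the rule were lower in the low-score cells. Of 59 other S phase genes 53 were lower in 4 of 4 mice and 0 higher, with a median log2 difference of -2.07 against -0.08 over all genes tested. In the single mice the median was -2.32 in KO1, -1.44 in KO3, -2.57 in WT1 and -1.97 in WT2, and over the pairs of similar detection it was -1.86. Mcm4, a further subunit of the MCM helicase (ENSMUSG00000022673; GRCm38 chromosome 16, 15623897 to 15637400), had 83.2, 58.2, 99.9 and 44.5 CPM in the low-score cells of KO1, KO3, WT1 and WT2, against 399.9, 370.2, 438 and 268 CPM in the other cells. The ranges over mice do not overlap, and the log2 difference was -2.41 (SE 0.141; edgeR, adjusted p = 0.0796). Lig1, the ligase that joins Okazaki fragments (GRCm38 chromosome 7, 13277283 to 13311433), had 25.5, 34.1, 38.99 and 19.2 CPM against 167, 230.5, 199 and 174 CPM (log2 difference -2.75, SE 0.179; edgeR, adjusted p = 0.0796). Thymidine kinase, Tk1, had a log2 difference of -1.79 (SE 0.136) and Pola2, a subunit of DNA polymerase alpha, of -2.86 (SE 0.226).

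Mitotic genes lay further down. Of 69 other G2/M genes 62 were lower in 4 of 4 mice and 0 higher, with a median log2 difference of -3.79, and with medians of -3.47 in KO1, -2.26 in KO3, -3.35 in WT1 and -3.97 in WT2. In the pairs of similar detection the median was -3.54. Knl1, a scaffold of the kinetochore (GRCm38 chromosome 2, 119047119 to 119105501), had 1 count in 1 of the 98 low-score cells against 6313 counts in 70 of the 186 other cells, 2997.5-fold lower (exact 95% interval of the ratio 538 to 118413, counting error only). Ndc80, which ties the kinetochore to microtubules, had 1 count in 1 low-score cell against 3518 counts in 48 other cells. These are reads without molecular identifiers, so reads of 1 cell are not independent and the interval is too narrow. The number of cells is therefore given beside them. Smaller differences were found for the chromatin protein gene Hmgb2, with 40.1, 90.3, 49.1 and 41.2 CPM in the low-score cells of KO1, KO3, WT1 and WT2, against 139.2, 228, 183 and 101.2 CPM in the other cells (log2 difference -1.58, SE 0.164), and for the condensin gene Smc2, with a log2 difference of -2.34 (SE 0.293). Of 20 genes of chromatin and the cytoskeleton that are linked to proliferation, 16 were lower in 4 of 4 mice and 0 higher (median log2 difference -0.72). Among them the tubulin gene Tubb5 had 660.5, 611, 497 and 506 CPM in the low-score cells against 1398, 1518, 1356 and 1148 CPM in the other cells, Tuba1b had a log2 difference of -1.66 (SE 0.177), the microtubule regulator Stmn1 of -1.80 (SE 0.239) and Hmgn2 of -1.22 (SE 0.165). For the 17 canonical histone genes tested, whose near-identical copies make single values uncertain, the median log2 difference was -1.80, with 4 lower in 4 of 4 mice. KO3 had the medians nearest to 0 of the 4 mice for the S phase and G2/M lists. For the histone genes its median was the furthest from 0, at -2.804 against -0.846 in KO1, -1.652 in WT1 and -0.355 in WT2.

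The promoters of a few of these genes are printed to show the words that mark their classes. The sequences are those of RefSeq for GRCm38.p6, 250 bases before to 50 after the gene start, 5′ to 3′ on the strand of the gene, and capitals mark matches to E2F (TTCCCGC or TTGGCGC), CHR (TTTGAA or TTCGAA) and CCAAT on either strand. Lig1 (chr7:13279015-13279314, plus strand) is the S phase example, and of its 3 promoters 1 that holds an E2F word was picked. Knl1 (chr2:119046869-119047168, plus strand) is the mitotic example. Cdk1 (chr10:69352863-69353162, minus strand), a gene of the rule, holds all 3 words.
Lig1: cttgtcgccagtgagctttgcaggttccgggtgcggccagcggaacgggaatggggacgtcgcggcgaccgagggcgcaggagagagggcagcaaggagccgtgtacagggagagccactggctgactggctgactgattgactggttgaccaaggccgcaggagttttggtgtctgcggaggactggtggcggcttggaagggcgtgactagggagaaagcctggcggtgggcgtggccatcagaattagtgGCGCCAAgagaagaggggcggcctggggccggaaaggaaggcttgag
Knl1: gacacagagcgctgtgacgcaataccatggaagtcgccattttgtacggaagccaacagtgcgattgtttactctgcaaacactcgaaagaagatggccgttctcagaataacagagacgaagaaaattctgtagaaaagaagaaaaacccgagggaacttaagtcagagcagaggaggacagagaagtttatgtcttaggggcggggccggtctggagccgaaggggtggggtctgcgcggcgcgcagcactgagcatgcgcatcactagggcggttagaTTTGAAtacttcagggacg
Cdk1: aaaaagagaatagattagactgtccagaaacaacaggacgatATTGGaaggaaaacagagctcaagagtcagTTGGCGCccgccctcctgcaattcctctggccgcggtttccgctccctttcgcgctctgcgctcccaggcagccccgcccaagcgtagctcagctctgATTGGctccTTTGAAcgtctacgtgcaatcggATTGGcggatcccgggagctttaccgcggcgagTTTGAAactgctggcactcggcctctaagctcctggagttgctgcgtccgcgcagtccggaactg
The Lig1 promoter held 1 E2F word, on the opposite strand, and no CHR or CCAAT word. The Knl1 promoter held 1 CHR word, after the gene start. The Cdk1 promoter held 1 E2F word, 2 CHR words and 3 CCAAT words, all 3 on the opposite strand. Of the 69 other G2/M genes 57 had a promoter in the table (each gene counted once, with a match in any of its promoters), and 43 of these held a CHR word (75.4%), against 21.7% of all 27025 genes with a promoter. A CCAAT word was found in 43 of the 57 (75.4%) against 41.1% of all genes, and an E2F word in 5 (8.77%) against 7.79%. Of the 14055 genes tested 9374 had a promoter, fewer than 80%, and of these 16.35% held a CHR word, 42.85% a CCAAT word and 14.55% an E2F word. The share with an E2F word lay above the one background and below the other. Since the second covers fewer than 80% of its genes, no direction is read from it. Of the 59 other S phase genes 43 had a promoter, fewer than 80%, so the check is void for that list and its shares are not compared. A match is a run of letters and not a bound site, and the words were not tested against the levels.

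Genes that hold cells out of the cycle were higher in part. Of 6 CDK inhibitors tested 3 were higher in 4 of 4 mice and 1 lower (median log2 difference 0.44, and 0.47 in the pairs of similar detection). Cdkn1a, which encodes p21, had 282, 441, 212 and 314 CPM in the low-score cells of KO1, KO3, WT1 and WT2, against 205, 311, 161 and 276 CPM in the other cells. The low-score value was the higher one in each mouse while the ranges over mice overlap (log2 difference 0.39, SE 0.105; edgeR, adjusted p = 0.442). Cdkn2b, which encodes p15, had 26.1, 44.7, 36.4 and 34.5 CPM against 15.3, 29.2, 12.5 and 31.3 CPM (log2 difference 0.76, SE 0.301). Of 31 antiproliferative and quiescence genes 9 were higher in 4 of 4 mice and 1 lower, with a median of 0.36. The medians of that list were 0.48 in KO1, 0.01 in KO3, 0.84 in WT1 and 0.37 in WT2, and 0.09 in the pairs of similar detection. Sesn3, a sestrin that restrains mTORC1, had 37.9, 7.89, 34.5 and 28.8 CPM in the low-score cells against 12.0, 1.52, 11.3 and 7.76 CPM in the other cells, with counts in 14, 2, 9 and 12 low-score cells (log2 difference 1.88, SE 0.321). Ndrg1, a stress-responsive growth suppressor gene, had a log2 difference of 1.46 (SE 0.303), with 15.8% of its counts in 1 cell, the RNA-binding protein gene Zfp36l1 of 0.82 (SE 0.171) and the antiproliferative gene Btg2 of 0.59 (SE 0.126). In the pairs of similar detection the difference of Zfp36l1 was 0.07.

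Regulators of the step from G1 to S divided. The cyclin D2 gene Ccnd2 had 353, 62.9, 325 and 254 CPM in the low-score cells of KO1, KO3, WT1 and WT2, against 224, 51.01, 102.8 and 83.9 CPM in the other cells, higher in each mouse by between 0.30 (KO3) and 1.66 (WT1) on the log2 scale. Myc, the growth-driving transcription factor, had 462, 290.2, 461 and 893 CPM against 402, 262, 272 and 577 CPM (log2 difference 0.43, SE 0.143). Its difference was -0.05 in the pairs of similar detection and -0.04 on the mean log2 level per cell. Over the 12 G1 cyclins and kinases 3 were higher and 3 lower in 4 of 4 mice. Genes of the pocket proteins and the DREAM complex were lower in part: 5 of 13 were lower in 4 of 4 mice and 0 higher (median log2 difference -0.53). Tfdp1, the DP partner of E2F, had 64.7, 92.5, 107.8 and 88.01 CPM in the low-score cells against 190.4, 199, 195 and 132.5 CPM in the other cells. The p107 gene Rbl1, itself known as a target of E2F, had 22.2, 10.2, 7.43 and 7.07 CPM against 47.2, 38.8, 63.3 and 39.8 CPM. Of 21 p53 targets 5 were higher and 4 lower in 4 of 4 mice, with Trp53inp1 at a log2 difference of 0.65 (SE 0.140).

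Beyond these lists, the 10 genes of lowest p that were higher in 4 of 4 mice are given with their known roles (edgeR, adjusted p between 0.213 and 0.263). Map1lc3b, whose product LC3B coats autophagosomes, had 313, 201, 324 and 494 CPM in the low-score cells of KO1, KO3, WT1 and WT2, against 159, 120.5, 169 and 311 CPM in the other cells, with counts in all 98 low-score cells. Its log2 difference was 0.83 (SE 0.108; edgeR, adjusted p = 0.213) and 0.40 in the pairs of similar detection. The clock-linked repressor gene Bhlhe41 had 159, 61.9, 100.5 and 98.3 CPM against 74.3, 33.9, 40.4 and 40.7 CPM, with a log2 difference of 1.14 (SE 0.148), or 0.16 in the pairs. Ypel5 had 51.9, 67.8, 84.7 and 74.2 CPM against 15.7, 19.3, 11.4 and 28.9 CPM, and every low-score value lay above every other value (log2 difference 1.94, SE 0.304). Dsp, which encodes the desmosomal plaque protein desmoplakin, had 691, 1063, 988 and 1025 CPM against 451, 619, 588 and 756 CPM (log2 difference 0.65, SE 0.101), and the heparan sulfate proteoglycan gene Sdc4 had 1146, 1482, 1416 and 1671 CPM against 732, 841, 711 and 1178 CPM (log2 difference 0.74, SE 0.113). The transmembrane protease gene Tmprss11b had a log2 difference of 2.38 (SE 0.321) but counts in 3, 8, 8 and 2 low-score cells only. The others were the transcription factor gene Atf7 (log2 difference 0.85, SE 0.127), the F-box gene Fbxl20 (1.88, SE 0.293), the cholesterol exporter gene Abca1 (1.66, SE 0.265) and the 5-oxoprolinase gene Oplah (0.95, SE 0.157).

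The 10 genes of lowest p that were lower in 4 of 4 mice and stood in neither the rule nor the cycle lists follow, several of them known from replication, repair or division. Hat1, which acetylates new histone H4, had 52.1, 29.2, 28.8 and 20.1 CPM in the low-score cells of KO1, KO3, WT1 and WT2, against 162, 149.6, 150.3 and 88.2 CPM in the other cells (log2 difference -2.13, SE 0.183; edgeR, adjusted p = 0.0856). Tubg1, the gamma-tubulin that nucleates microtubules, had 53.4, 59.1, 62.9 and 22.8 CPM against 116.4, 136.6, 145.7 and 65.7 CPM, with every low-score value under every other value. Lbr, the lamin B receptor gene, had 75.6, 128.9, 112.5 and 90.9 CPM against 188, 239, 245 and 184 CPM (log2 difference -1.09, SE 0.123). Rad54l, a motor of homologous recombination, had 6 counts in 2 of the 98 low-score cells against 5159 counts in 63 of the 186 other cells. The replisome gene Wdhd1 had a log2 difference of -2.83 (SE 0.368), Pkmyt1, a kinase that inhibits CDK1, of -1.99 (SE 0.277), the mismatch repair gene Msh6 of -1.56 (SE 0.227), the RNA-binding protein gene Lsm2 of -1.21 (SE 0.178), the histone chaperone gene Dnajc9 of -1.72 (SE 0.257) and the centromere gene Cenph of -3.80 (SE 0.575).

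**Figure D3:**
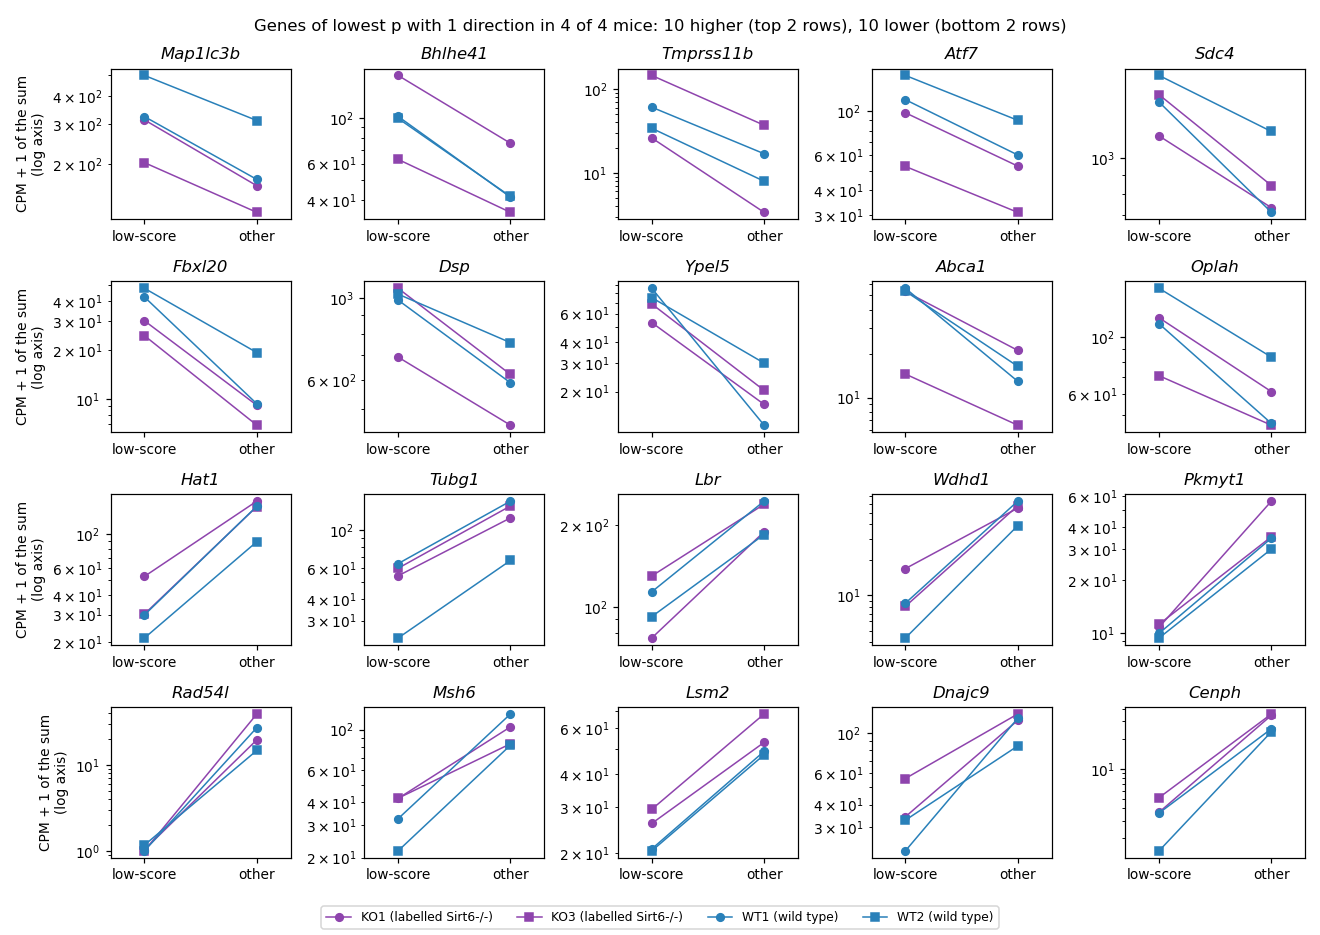
Levels of the 20 genes of lowest p outside the cycle lists, as CPM + 1 of the sums on log axes that differ between panels. Lines join the low-score (left) and other cells (right) of a mouse, purple for mice labelled Sirt6-/- and blue for wild type. The 10 genes in the top rows are higher and the 10 in the bottom rows lower in the low-score cells of 4 of 4 mice.

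Nucleotide synthesis and ribosome biogenesis lists had small negative medians. Of 24 nucleotide synthesis genes 12 were lower in 4 of 4 mice and 0 higher (median log2 difference -0.52, and -0.28 in the pairs of similar detection). The folate enzyme gene Shmt1 had 81.6, 84.3, 87.4 and 88.3 CPM in the low-score cells of KO1, KO3, WT1 and WT2, against 183, 186, 159 and 135.1 CPM in the other cells (log2 difference -0.95, SE 0.147). Mthfd1 had a log2 difference of -0.68 (SE 0.169) and the purine synthesis gene Pfas of -0.80 (SE 0.226), with KO3 at -0.02 for Pfas. Of 26 ribosome biogenesis genes 7 were lower and 0 higher in 4 of 4 mice (median -0.33, -0.19 in the pairs and 0.07 in KO3), among them Fbl, the rRNA methyltransferase fibrillarin, at -0.55 (SE 0.124). Of 84 ribosomal protein genes 24 were higher and 0 lower in 4 of 4 mice, with a median of 0.14 and of 0.06 in the pairs of similar detection. The elongation factor gene Eef2 had a log2 difference of 0.26 (SE 0.086). For 13 heat shock chaperone genes the counts were 2 higher and 2 lower, with Hsp90aa1 at -0.65 (SE 0.108) and -0.23 in the pairs. Hsph1, of the HSP110 family, had a log2 difference of -0.85 (SE 0.228) that turned to 0.04 in the pairs, and the small heat shock protein gene Hspb1 had one of 0.44 (SE 0.165).

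Energy metabolism gave small differences between the states. Of 20 glycolysis genes 2 were higher and 2 lower in 4 of 4 mice (median log2 difference -0.20, and -0.04 in the pairs of similar detection). The hexokinase gene Hk2 had 73.5, 123.2, 83.04 and 122.9 CPM in the low-score cells of KO1, KO3, WT1 and WT2, against 36.04, 84.8, 50.2 and 63.8 CPM in the other cells (log2 difference 0.81, SE 0.149), while Gapdh had 1058, 1368, 1469 and 757 CPM against 1349, 1476, 1731 and 1062 CPM (log2 difference -0.30, SE 0.0997). For 51 oxidative phosphorylation genes the median was -0.05, with 2 higher and 3 lower, for 14 TCA cycle genes it was -0.11 (0.03 in the pairs), and for 31 proteasome genes -0.13 (-0.02 in the pairs).

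Differentiation genes gave no single direction, with WT2 opposite to the other mice. The median log2 difference of 22 suprabasal and cornified genes was 0.49 in KO1, 2.25 in KO3, 1.32 in WT1 and -1.47 in WT2, and 2 of the 22 were higher in 4 of 4 mice. Krt13, a keratin of mucosa that skin papillomas are known to gain, had 58.9, 191, 153.1 and 0.634 CPM in the low-score cells of KO1, KO3, WT1 and WT2, against 10.0, 19.4, 4.08 and 0.481 CPM in the other cells. It had counts in 16 of the 98 low-score cells (4, 4, 7 and 1) and in 10 of the 186 other cells, with 15.5% of the counts in 1 cell. The crosslinking enzyme gene Tgm1 had 11.3, 169.9, 94.4 and 6.34 CPM against 5.14, 34.9, 17.5 and 6.05 CPM. Counts of Tgm1 were found in 19.4% of the low-score and 19.4% of the other cells. Pooled over mice, shares were lower in low-score cells for Krt1 (26.5% against 34.9%), Krt10 (37.8%, 48.9%), Krtdap (90.8%, 98.9%), Sbsn (76.5%, 84.4%) and Ivl (8.2%, 12.9%). Mice differed, with Krt1 at 66.7% against 38.5% in KO3 and 8.3% against 35.6% in WT1. These shares were not tested and move with the genes detected. Dsg1a, which encodes a desmoglein of the upper epidermis, had a positive log2 difference in KO1 (2.599), KO3 (3.43) and WT1 (3.21) and a negative one in WT2 (-0.76). For 7 wound keratin genes the medians were 0.67, 1.09, 1.23 and -1.46 in KO1, KO3, WT1 and WT2. Of 18 basal keratinocyte genes 1 was higher and 0 lower in 4 of 4 mice (median 0.12, and -0.11 in the pairs of similar detection). The median of the suprabasal list was 0.74, against 1.47 in the pairs.

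For immediate early and interferon genes the list medians of KO1, WT1 and WT2 were positive and above that of KO3. For 19 immediate early genes the median log2 difference was 0.39 in KO1, -0.30 in KO3, 0.81 in WT1 and 0.57 in WT2, and 4 were higher in 4 of 4 mice. The median was 0.27 in the fit of all cells and -0.16 in the pairs of similar detection, so the direction turned there. Ppp1r15a, a stress-induced phosphatase subunit, had 175, 122.5, 216 and 280.2 CPM in the low-score cells of KO1, KO3, WT1 and WT2, against 101.8, 93.3, 92.6 and 155.3 CPM in the other cells (log2 difference 0.81, SE 0.163). Jun had a log2 difference of 0.47 (SE 0.149), which was -0.16 in the pairs of similar detection. The medians of 18 interferon and MHC class I genes were 0.43, 0.06, 0.77 and 0.30 in KO1, KO3, WT1 and WT2, with H2-K1 at 0.52 (SE 0.153) and 0.09 in the pairs. The list median was 0.40, against 0.10 in the pairs. Of 9 matrix and invasion genes 1 was higher and 1 lower in 4 of 4 mice, with 5 negative differences (median -0.09, turned to 0.22 in the pairs), and of 22 genes of EGF receptor and Ras feedback 1 was higher and 1 lower, with 12 negative (median -0.06). The matrix metalloproteinase gene Mmp14 had 58.8, 39.1, 75.8 and 104.8 CPM in the low-score cells against 25.3, 25.96, 40.7 and 75.0 CPM in the other cells (log2 difference 0.80, SE 0.190), and Tgfa, a ligand of the EGF receptor, had a log2 difference of 0.43 (SE 0.124) that lay between 0.36 and 0.48 in the 4 mice. Areg, another ligand of that receptor, had 227, 332, 224 and 58.96 CPM in the low-score cells against 229.9, 463, 327 and 75.6 CPM in the other cells (log2 difference -0.35, SE 0.128) and -0.04 in the pairs. Sirt6 had 35.8, 20.0, 20.0 and 32.6 CPM in the low-score cells against 20.6, 12.5, 14.8 and 22.5 CPM in the other cells (log2 difference 0.61, SE 0.250; edgeR, adjusted p = 0.57), and the tubulin deacetylase gene Sirt2 had a log2 difference of 0.44 (SE 0.159).

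**Figure D4:**
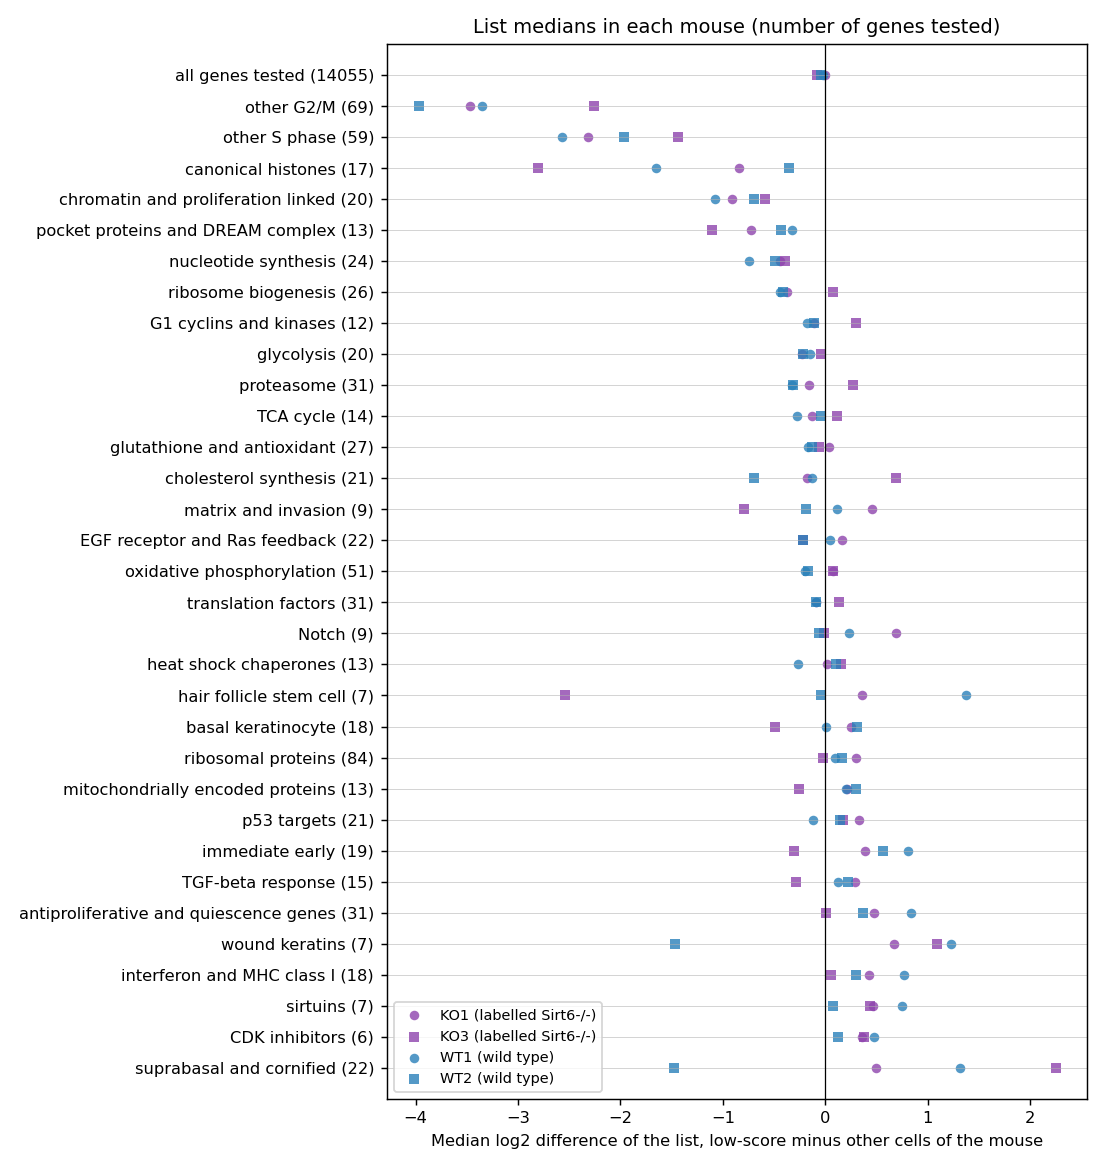
Median log2 difference of each gene list (rows, with the number of genes tested) between low-score and other cells, 1 point per mouse. The G2/M list lies between -3.97 and -2.26 and the S phase list between -2.57 and -1.44, and the suprabasal list runs from -1.47 in WT2 to 2.25 in KO3.

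The genotypes were then compared within the low-score cells, 28 and 15 cells of the mice labelled Sirt6-/- against 24 and 31 cells of the wild type. SIRT6 is a chromatin-bound deacetylase known to repress glycolytic genes. Sirt6 itself (GRCm38 chromosome 10, 81621785 to 81627797) had 34.9 and 19.6 CPM in the low-score cells of KO1 and KO3 against 19.5 and 31.98 CPM in WT1 and WT2, with counts in 22 and 9 cells against 16 and 21. The values overlap and go against a loss of the whole transcript. Counts summed over a gene do not show whether 1 of its exons is gone, so both animals are named by their label. By edgeR 0 of 13558 genes were called (0%), and 645 had an unadjusted p under 0.05 (4.76%), 215 higher (1.59%) and 430 lower (3.17%). DESeq2 called 1.12%, of which 37 genes were higher (0.273%) and the rest lower (0.848%) in KO1 and KO3, and limma-voom called 0. The fit has 2 residual degrees of freedom and a common biological coefficient of variation of 0.908.

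Proteasome and respiratory genes had the highest shares of members that lay above the wild type without overlap, among the lists compared. All 31 proteasome genes had a positive log2 difference, and for 25 of them KO1 and KO3 both exceeded WT1 and WT2, where 17.3% of all 13558 genes did so. The median log2 difference was 0.69 against -0.03 over all genes, and 0.38 without KO3 and 0.45 without WT2. Psmd14, the deubiquitinase subunit of the lid, had 154.97 and 309 CPM in KO1 and KO3 against 132.3 and 82.3 CPM in WT1 and WT2, a log2 difference of 1.11 (SE 0.485; edgeR, adjusted p = 1.0). Psmc4, an ATPase of the base, had 336 and 491 CPM against 311 and 160 CPM, Psma3 of the core had 289 and 399 CPM against 276 and 169 CPM, and Psmd13 had 255 and 389 CPM against 217 and 214 CPM. Of 51 oxidative phosphorylation genes 49 were positive and 35 did not overlap between the genotypes in that direction, with a median of 0.46. Ndufv2 of complex I had 183 and 220.3 CPM in KO1 and KO3 against 122.5 and 109.01 CPM in WT1 and WT2 (log2 difference 0.80, SE 0.295), Sdhd of complex II had 173 and 235 CPM against 118.5 and 144.8 CPM, Ndufb7 had 45.1 and 65.8 CPM against 38.04 and 29.6 CPM, and Sdha had 391 and 365 CPM against 251 and 301 CPM. In low-score cells without any G2/M transcript, a choice made after seeing the data that leaves 2 cells of KO3, the medians were 0.27 for the proteasome and 0.39 for oxidative phosphorylation. Of 27 glutathione and antioxidant genes 23 were positive and 14 lay higher without overlap. The 20 glycolysis genes had 11 positive and 9 negative differences (median 0.12). Without overlap 1 lay higher (5.0%) and 6 lower (30.0%), against 17.3% and 19.1% of all genes. The glycolysis median turned to -0.13 without KO3 and -0.23 without WT2, where the median of all genes was -0.04 and 0.05. In the cells without G2/M transcripts it was -0.21, and the median of all genes was -0.21 there as well.

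Immediate early and basal keratinocyte genes had the highest shares below the wild type without overlap, among the same lists. Of 18 basal keratinocyte genes 15 had a negative log2 difference, and for 10 KO1 and KO3 both lay below WT1 and WT2, where 19.1% of all genes did so. The median was -0.72, and -1.17 without KO1 and -0.46 without KO3. Krt5 had 4767 and 2707 CPM in the low-score cells of KO1 and KO3 against 5502 and 7924 CPM in WT1 and WT2, and Sox9, a follicle and tumour stem cell factor, had 154.2 and 28.1 CPM against 182 and 418 CPM. Lama3 had 123.7 and 197 CPM against 187 and 149.1 CPM and Cd34 had 227 and 173 CPM against 258 and 102.9 CPM, so that the genotypes overlapped for both. Of 19 immediate early genes 16 were negative and 13 lay lower without overlap (median -1.02). Jun had 1645 and 1229 CPM against 2022 and 3793 CPM, Junb had 1314 and 1429 CPM against 1626 and 3701 CPM, Atf3 had 591 and 392.5 CPM against 599 and 1779 CPM, and Ppp1r15a had 171 and 120.3 CPM against 211 and 275 CPM. The high values were those of WT2, and the median was -0.41 without WT2 and -1.54 without WT1. Of 30 antiproliferative genes 26 were negative and 9 lay lower without overlap. Cycle genes were positive in 46 of 58 (G2/M, median 1.11) and in 39 of 52 (S phase, median 0.78). Members were cut at the medians of their own mouse (G2/M score 4.99 in KO3, 0.847 in WT2). The rule thus partly sets these values, and they are no result on genotype. With medians over all cells the list medians were 0.16 and 0.39. They rested on KO3: without it the medians under the main rule were -0.003 and 0.02. Without WT1 the G2/M median was 1.77. Suprabasal genes were positive in 21 of 22 (median 1.62), with 7 higher without overlap and medians of 0.51 without KO3, 0.915 without WT2 and 3.96 without WT1.

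**Figure D5:**
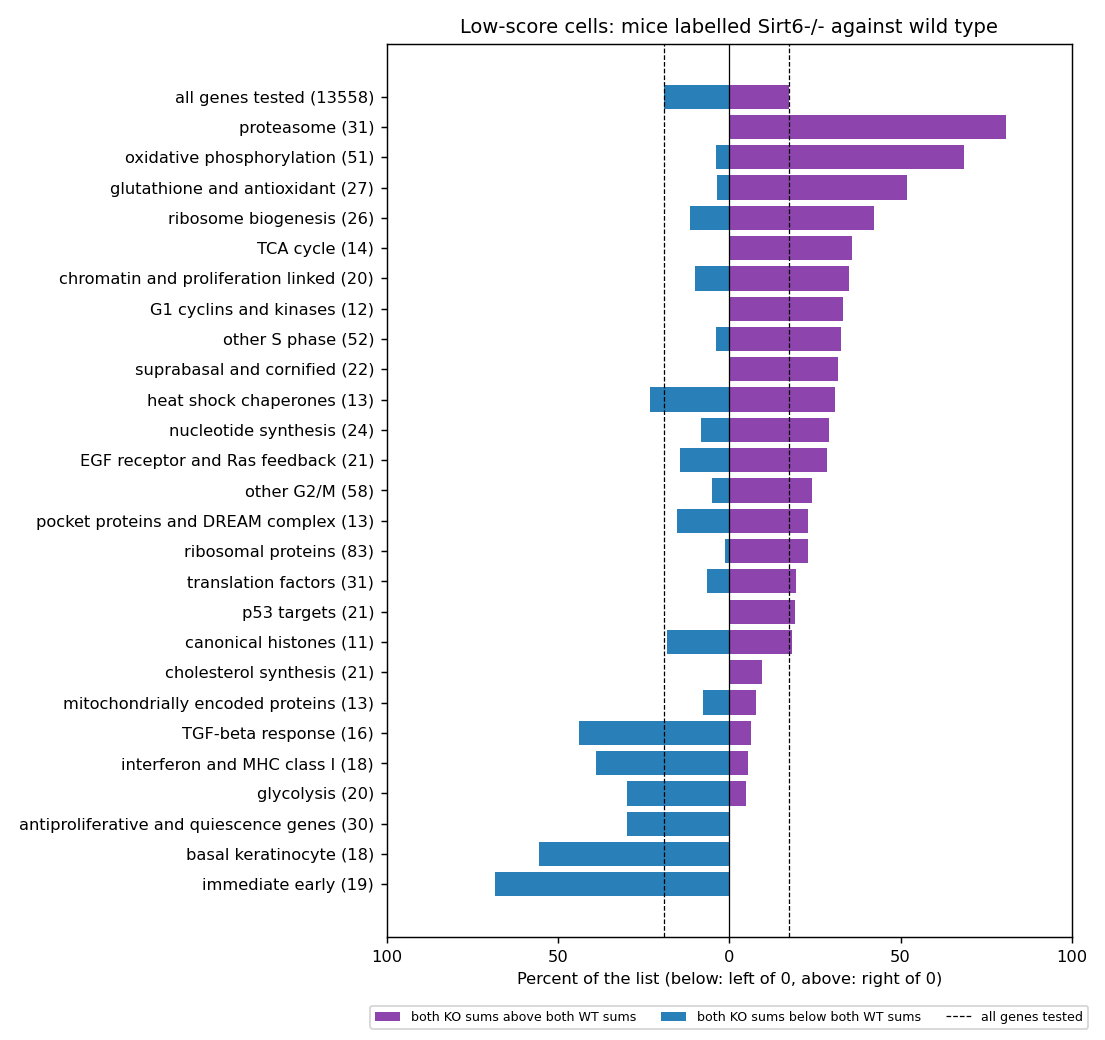
Share of each list (number of genes tested) for which the sums of both mice labelled Sirt6-/- lay above (purple, right) or below (blue, left) both wild-type sums in low-score cells. Dashed lines are all genes tested, 17.3% above and 19.1% below. Proteasome genes reach 80.6% above and immediate early genes 68.4% below.

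Several of the genes of lowest p (edgeR, adjusted p = 0.8145 for each) rested on few cells. Ivl, which encodes the cornified envelope protein involucrin, had 10.0 and 40.7 CPM in the low-score cells of KO1 and KO3, in 3 and 5 cells, against 0 counts in 55 wild-type low-score cells, which allows a share of up to 5.45% of cells with a count. This limit pools the cells of 2 mice and covers counting error only, neither the spread between mice nor transcripts missed in a cell. Set against a floor of 3 counts over the wild-type group, the ratio of the scaled counts was 390.0. Reads of 1 cell are not independent, so such a ratio to a floor is no lower bound of the difference. The arginase gene Arg1 had counts in 2 and 3 cells of KO1 and KO3 and 0 in the wild type. Its ratio to the floor was 347, with 63.6% of the counts in 1 cell. Fcgbp, a mucus-associated protein gene, had 0 counts in 43 low-score cells of the mice labelled Sirt6-/-. This allows up to 6.98% of cells with a count, with the same limits. WT1 and WT2 had 147.8 and 120 CPM, a ratio of 2065 to such a floor, in 1 cell of WT1 and 9 of WT2. The transcription factor gene Zbtb20 had 0 counts in the same 43 cells against 12.9 and 48.1 CPM in 4 and 8 cells, a ratio of 509 to the floor. Pbxip1 had 1 count against 1194 counts in 9 cells. Tmem231, a gene of the ciliary transition zone, had 22 counts in 4 cells against 1669 counts in 13 cells.

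More widely expressed genes gave smaller differences. The calmodulin-like gene Calm4, known from differentiating epidermis, had 1170.2 and 1815 CPM in KO1 and KO3 against 348 and 512 CPM in WT1 and WT2 (log2 difference 1.80, SE 0.396). Brix1, a ribosome biogenesis gene, had 106.7 and 168 CPM against 45.4 and 37.98 CPM, the mitochondrial import gene Tomm5 had 90.7 and 121.8 CPM against 37.1 and 40.0 CPM, Nop10 of the box H/ACA snoRNPs had 132.6 and 143.8 CPM against 61.2 and 51.7 CPM, the lysosomal channel gene Tpcn2 had 57.6 and 84.6 CPM against 24.5 and 23.1 CPM, and Zfp93 had 28.7 and 43.9 CPM against 3.15 and 4.10 CPM, with 40.7% of its counts in 1 cell. The actin-severing protein gene Gsn had 237 and 152.3 CPM in KO1 and KO3 against 752 and 704 CPM in WT1 and WT2 (log2 difference -1.90, SE 0.347), the tenascin C gene Tnc had 38.8 and 17.6 CPM against 193 and 269.8 CPM, Palmd had 14.9 and 15.3 CPM against 72.0 and 57.6 CPM, and Pcmtd1 had 24.8 and 15.8 CPM against 96.5 and 114.6 CPM.

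Whether the state difference itself differed between the genotypes was asked with an interaction term, and edgeR called 0 of 14055 genes (0%), with 423 at an unadjusted p under 0.05 (3.01%; 1.37% positive and 1.64% negative). DESeq2 called 53 (0.377%; 0.185% positive and 0.192% negative) and limma-voom 0. The genes of lowest p (edgeR, adjusted p = 1.0 for each) are given as values. Fam111a, a replication-linked protease gene, had 13.4, 13.8, 0.255 and 0.3 CPM in the low-score cells of KO1, KO3, WT1 and WT2, against 46.6, 58.3, 33.1 and 33.8 CPM in the other cells. Timeless, of the fork protection complex, went the other way, with 0.066, 0, 12.8 and 5.24 CPM in the low-score cells against 44.7, 37.0, 54.1 and 28.8 CPM in the other cells. Ticrr, needed for origin firing, had 3.88, 8.43, 0 and 0.033 CPM against 21.6, 26.4, 29.8 and 20.7 CPM. Each was detected in at most 3 low-score cells of any mouse. Npnt, a matrix protein gene, had 0, 0, 125.3 and 15.5 CPM against 7.28, 1.06, 1.29 and 0.812 CPM, with 47.5% of its counts in 1 cell, and Ivl had 9.04, 11.1, 7.61 and 17.7 CPM in the other cells, so that it was present in the other cells of 4 of 4 mice and at 0 in the low-score cells of WT1 and WT2.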

How the data were processed

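Whole transcriptomes of 284 sorted cells (73 of KO1, 54 of KO3, 69 of WT1 and 88 of WT2) were measured. The authors deposited expected counts per gene and cell, made with STAR and RSEM on mm10 (GRCm38), per the submitters' processing notes. Tool versions and the strand setting are not stated in these sources. Fractional values made up 21.5% of those above 0, so reads of near-identical genes are shared out by estimate. Of 54247 gene IDs 54156 matched GENCODE M21. Total counts per cell lay between 523999 and 1684464. A count is a read, so intervals cover counting error only. No cell was left out, doublets were not called because cells were sorted singly into wells, and 0 pairs of cells held identical values.

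Members, gene lists and tests were chosen with earlier results of these data known. Counts were summed per mouse and state and rounded, and tested with edgeR 4.0.16 in R 4.3.3 (TMM, filterByExpr, glmQLFit, glmQLFTest, two-sided, Benjamini-Hochberg over all genes tested, threshold 0.05). The 16 genes of the rule stayed in the library sizes and out of the state and interaction tests. The state fit has the mouse as a block, because both sums of a mouse come from 1 animal. Genes were named by rule: the 10 of lowest p in each direction with 1 direction in 4 of 4 mice and at least 10 CPM, up to 4 of lowest p per list, and for the genotype 8 in each direction. Of the list genes, only some of those with an unadjusted p under 0.05 are printed, beside the cycle lists, Sirt6 and, for the genotype, the 4 named genes of 4 lists. Predicted genes and near-identical copies were passed over. DESeq2 1.42.0, limma 3.58.1 (voom, and mean log2(CPM + 1) per cell), other filters, thinning, other definitions of members and leaving out each mouse were alternatives. The fits were tested on simulated data with 200 changed genes, drawn only from genes with a mean of at least 10 CPM. Changes of genes at lower levels were not covered. In these data the state fit over 14055 genes called 25.5% of 2-fold and 73.4% of 4-fold changes. The genotype fit over 13558 genes called 1.06% and 2.83%, and the interaction fit over 14055 genes 0% and 33.3%. False calls numbered 8 in the state fit, 3 in the genotype fit and 11 in the interaction fit. The p-values measure the spread between these 4 mice, 2 per genotype.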

Additional observations from a re-analysis of the deposited data

Results flagged for a closer look

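Of the list medians and gene differences examined over the 4 mice, 5 (4.31%) had 1 mouse far from the others by Dixon's criterion, and chance flags about 1 in 20 groups. The median log2 difference between low-score and other cells was 0.298 in KO3 for the G1 cyclins and kinases, against -0.112 in KO1, -0.177 in WT1 and -0.111 in WT2. For the translation factors it was 0.131 in KO3, against -0.095, -0.093 and -0.086 in KO1, WT1 and WT2, and for ribosome biogenesis 0.071 in KO3, against -0.376, -0.444 and -0.417. The glycolysis gene Pgam1 likewise had 0.023 in KO3, against -0.434, -0.358 and -0.43. The MHC class I gene H2-K1 had a log2 difference of 1.026 in WT1, against 0.381, 0.401 and 0.292 in KO1, KO3 and WT2.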

How the results depend on the processing

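For the states, edgeR called 0 genes in the report, and 705 genes were called by DESeq2 (200 higher, 505 lower), 946 by limma on the mean log2(CPM + 1) per cell (11 higher, 935 lower), 26 with no replicate block, 23 by limma-voom, 11 with a minimum of 10 CPM, 8 against other cells high in both scores, 3 with medians over all cells, 2 after thinning, 2 with members found again after thinning and 1 with members below the 33rd percentile. The paired fit, with the mouse as the block, is the one reported; the 26 genes of the unpaired fit were all lower. For the genotypes DESeq2 called 1.12% of the genes tested and edgeR with no filter 0.00472% (1 gene), and for the interaction DESeq2 called 53; the cause was not tested. Every other alternative, each left-out mouse included, gave 0 for the 3 comparisons. The share of members in WT2 was 62.5% with medians over all cells, against 35.2%. The difference in genes detected lay between -1019 and -806 with 1 mouse left out. Among the values of named genes, 8 turned direction under some alternative. Myc turned to -0.0425 on the mean log2 level and -0.0477 in the pairs of similar detection, Jun to -0.16 and Hsph1 to 0.0353 in the pairs, and Dsg1a to -0.45 in cells without G2/M transcripts with KO3 left out as well. Sdha, between the genotypes, turned to -0.0509 in cells without G2/M transcripts. Between the genotypes Sirt6 turned to -0.0921 with medians over all cells and -1.22 in cells without G2/M transcripts (-0.40 to 0.48 with 1 mouse left out), Cd34 to -0.63, -0.64 and, with members found again after thinning, -0.0579 (-0.37 to 0.95), and Lama3 to 0.0135 after thinning and 0.0716 with members found again (-0.44 to 0.22). With 15 to 31 low-score cells per mouse, genes found in few cells cannot be placed.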
